A study of Homo sapiens with 18 samples.

Results

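Angiogenic and vasoactive factors are secreted proteins and peptides through which a cell acts on nearby vessels. In solid tumors, low oxygen stabilizes the hypoxia-inducible factors, which bind a short DNA motif and activate transcription of several of these genes. The factors described here are the VEGF family ligands VEGFA, VEGFB, VEGFC and PGF, the platelet-derived growth factor chains PDGFA and PDGFB, the peptides adrenomedullin (ADM) and endothelin-1 (EDN1), and the secreted glycoproteins angiopoietin-like 4 (ANGPTL4) and stanniocalcin-1 (STC1). They are 10 of the 28277 genes in the deposited table and were taken by symbol. The filter on low counts was passed by 8 of the 10, and EDN1 and STC1 are described by their counts.

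RNA-seq was performed on OVCAR3-KRAB, a line made from OVCAR3 ovarian cancer cells that stably expresses dCas9-KRAB, in which the KRAB repressor domain is joined to a Cas9 that cannot cleave DNA. All cells also carried a guide RNA, either sgControl (sgCtl), designed against the Gal4 promoter, or sgXIST7 or sgXIST9, which direct the repressor to the gene of the long noncoding RNA XIST. Each guide was read in clonal cells, kept in normoxia without further treatment or for 24 h at 1% oxygen (hypoxia), with 3 libraries for each of the 6 groups. The design asks how XIST knockdown (KD) changes expression, and whether it changes the response to low oxygen. Because a guide is represented by clonal cells, an effect of the guide and a difference between clones cannot be told apart. The study calls its RNA-seq replicates biological, and the labels do not say whether the libraries of a group came from separate cultures, so the p-values measure the spread between these libraries.

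Total counts ranged from 11794375 to 24906936 per library. XIST had 1589 to 11209 counts in the sgCtl libraries, 0 to 5 in sgXIST7 and 357 to 1009 in sgXIST9, as the labels state. Of 10 genes known to respond to low oxygen, 9 rose in hypoxia in each of the 3 clones, against 11.3%, 15.1% and 14.7% of all genes tested. Among them was the glucose transporter SLC2A1 (log2 fold change 3.64 in sgCtl, 3.62 in sgXIST7 and 3.14 in sgXIST9). In sgXIST7 the gene not called had a lower value in hypoxia. CA9, also on this list, passed the filter on low counts through hypoxia libraries alone, so that its direction was implied by the filter. The epithelial markers EPCAM and KRT18 were abundant in each group, with means of 160 to 243 and 140 to 219 CPM. PAX8 and KRT8, also on this list of 8, reached the level that the filter on low counts required (0.567 CPM) in all 18 libraries. KRT7 and WT1 did not pass the filter, and MUC16 and WFDC2 had at most 4 and 3 counts in any library. Of the 4 markers tested, 1 was called higher in each KD clone than in sgCtl at both oxygen levels. Such calls made up 4.67% and 3.93% of all genes in normoxia and 7.83% and 6.14% in hypoxia. In hypoxia 1 fell in sgCtl and 1 rose in sgXIST7, against 8.49% and 15.1% of all genes. Of 6 endothelial markers, CDH5, CLDN5 and ROBO4 had at most 2 counts in any library, PECAM1 at most 8 and VWF at most 13, and ESAM rose in hypoxia in each clone (log2 fold changes 2.82, 2.14 and 2.85). ESAM passed the filter on low counts mostly through hypoxia libraries, so that its rise was implied by the filter. The summed level of the 6 endothelial markers was 0.409 to 1.0 CPM in normoxia and 1.45 to 4.91 CPM in hypoxia. Of 3 leukocyte markers, PTPRC and CD3E had at most 1 count in any library, and CD68 had 10.8 to 55.8 CPM and fell in hypoxia in sgXIST9 (−1.35). The part of these markers in the hypoxia comparisons was not tested. Within their own groups, the hypoxia libraries numbered 3 of sgCtl and sgXIST9 had the lowest mean correlation with the other libraries (0.9586 and 0.97353), as did that of sgXIST7 in its own group (0.97915), and the calls of factors that change without these 3 libraries are given with both values.

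Levels are given as CPM, the standard unit of counts scaled by the TMM-normalized library size, and as RPKM, which are CPM divided by the deposited gene length in kilobases, where genes are compared with each other. Tests are quasi-likelihood tests from edgeR, in a fit of all 18 libraries over 14938 genes. Calls required an adjusted p below 0.01 together with a log2 fold change beyond 1 in either direction, and "rose" and "fell" are used for called genes alone. A group with at most 3 counts in each library was taken as not detected, and 3 counts correspond to 0.13 to 0.266 CPM. These limits cover counting error only.

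Promoters of 7 of the 10 genes were found in the set of RefSeq promoters used here (GRCh38.p14). The 250 bases before the transcription start were searched for ACGTG and GCGTG, the core letters of the hypoxia response element, on both strands. ACGTG overlaps its own reverse complement where the letters read CACGTG. A match was present in 6 of the 7 windows, those of VEGFB, VEGFC, ADM, ANGPTL4, EDN1 and PDGFA, and not in that of PGF. Of all 35116 windows of this length, 43.2% held a match. The windows of 3 genes that rose in hypoxia are shown in gene orientation, with the match in capitals. They belong to ANGPTL4 (plus strand, chr19:8363905-8364154), which rose in hypoxia in all 3 clones, and to ADM (plus strand, chr11:10304823-10305072) and PDGFA (minus strand, chr7:519847-520096), which rose in hypoxia in the KD clones.
ANGPTL4: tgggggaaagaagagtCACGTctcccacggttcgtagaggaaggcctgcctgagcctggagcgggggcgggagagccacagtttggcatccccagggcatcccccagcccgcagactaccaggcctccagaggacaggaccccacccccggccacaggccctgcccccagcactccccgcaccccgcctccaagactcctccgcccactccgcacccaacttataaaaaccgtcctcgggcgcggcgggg
ADM: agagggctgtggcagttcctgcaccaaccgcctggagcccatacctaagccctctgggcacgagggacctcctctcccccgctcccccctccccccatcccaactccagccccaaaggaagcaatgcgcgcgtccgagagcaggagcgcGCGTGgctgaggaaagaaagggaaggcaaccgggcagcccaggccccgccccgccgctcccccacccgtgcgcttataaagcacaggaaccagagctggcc
PDGFA: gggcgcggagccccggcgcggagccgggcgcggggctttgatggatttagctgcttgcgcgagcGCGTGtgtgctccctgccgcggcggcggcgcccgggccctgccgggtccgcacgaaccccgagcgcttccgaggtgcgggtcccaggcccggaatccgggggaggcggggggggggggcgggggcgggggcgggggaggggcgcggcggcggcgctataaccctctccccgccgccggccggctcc
The match of ANGPTL4 began 234 bases before the start, that of ADM 101 and that of PDGFA 186. Such a match is a description of letters and not a binding site.

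**Figure D1:**
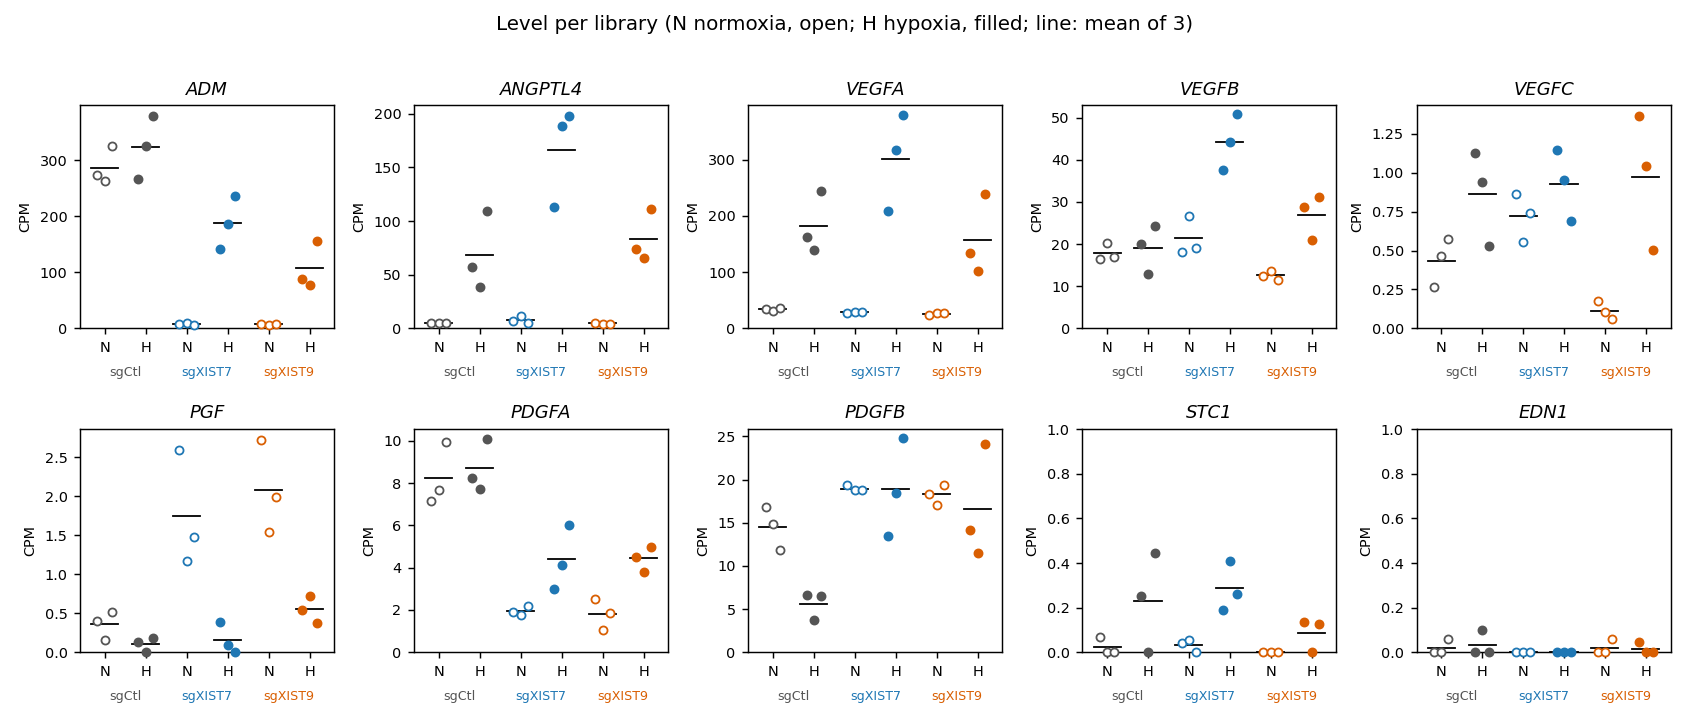
CPM of the 10 factors in each library, on linear axes from 0, in normoxia (N, open points) and hypoxia (H, filled points) for sgCtl, sgXIST7 and sgXIST9; lines are means of 3 libraries. ADM stood at 263 to 380 CPM in the 6 sgCtl libraries and at 5.93 to 9.89 CPM in the 6 KD libraries of normoxia.

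The most abundant factor in sgCtl cells in normoxia, per length, was ADM, with 192 ± 22.3 RPKM (SD, n = 3). VEGFB followed with 9.88 ± 1.14 RPKM and VEGFA with 8.99 ± 0.64 RPKM, which do not differ beyond their spread. PDGFB (3.83 ± 0.667 RPKM), PDGFA (2.94 ± 0.524 RPKM) and ANGPTL4 (2.80 ± 0.0666 RPKM) were lower, and neighbours among these 3 lay within their spread as well. VEGFC and PGF were near the detection limit, at 0.193 ± 0.0685 and 0.187 ± 0.0968 RPKM. In hypoxia the order in sgCtl was ADM (217 ± 38.0 RPKM), VEGFA (47.9 ± 14.6 RPKM) and ANGPTL4 (36.6 ± 19.4 RPKM), and the last 2 were not separated by their spread. In normoxia the KD clones had VEGFB and VEGFA as the factors with the highest levels, with 11.8 ± 2.60 and 7.46 ± 0.200 RPKM in sgXIST7 and 6.96 ± 0.564 and 6.90 ± 0.634 RPKM in sgXIST9. ADM stood at 5.45 ± 1.35 RPKM in sgXIST7 and 4.69 ± 0.593 RPKM in sgXIST9, at the level of PDGFB (5.01 ± 0.0844 and 4.83 ± 0.302 RPKM). In hypoxia ADM was again the factor with the highest mean in both, with 126 ± 32.1 RPKM in sgXIST7 and 71.8 ± 28.4 RPKM in sgXIST9.

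**Figure D2:**
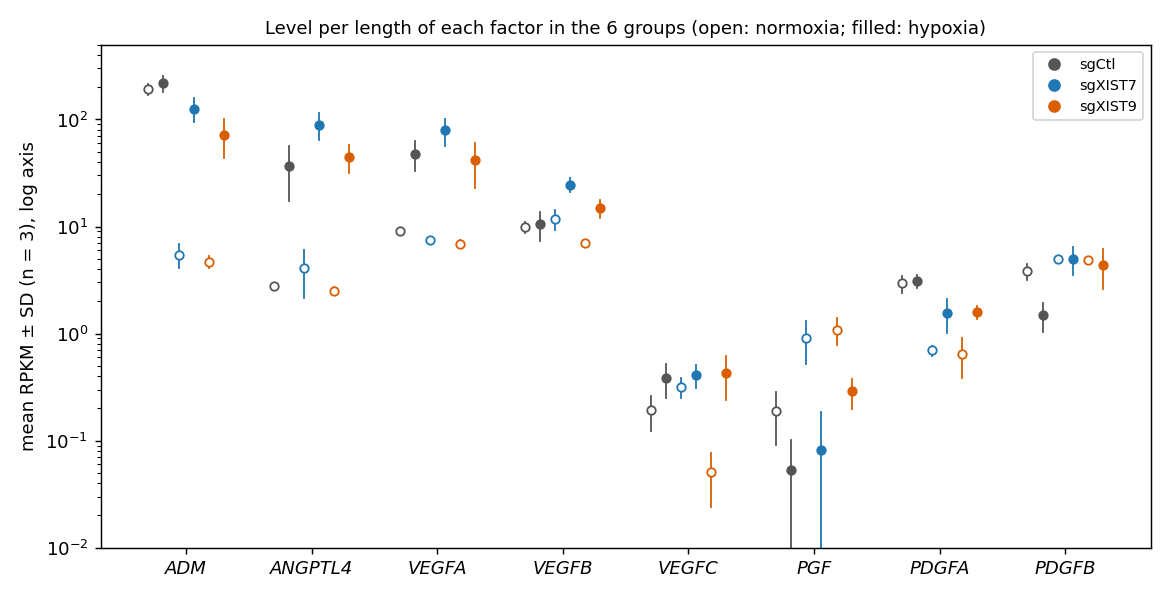
Mean RPKM on a log axis for the 8 factors that passed the filter, in the 6 groups (open points normoxia, filled points hypoxia); bars are the SD over 3 libraries and end at the lower edge of the axis where the SD reaches it. ADM fell out of the top position only in the KD clones in normoxia, where its mean was 5.45 and 4.69 RPKM.

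The first comparison asked which factors changed in hypoxia within each clone. In sgCtl, VEGFA and ANGPTL4 rose and PDGFB fell, so that 2 of the 8 factors were up-regulated and 1 down-regulated, against 11.3% and 8.49% of all genes tested (19.7% in either direction). In sgXIST7, 5 rose (VEGFA, ANGPTL4, ADM, VEGFB and PDGFA) and PGF fell, against 15.1% and 12.2% of all genes (27.3% in either direction). In sgXIST9, 6 rose, the same 5 and VEGFC, and PGF fell, against 14.7% and 8.58% of all genes. The median log2 fold change over the 8 factors was 0.13 in sgCtl, 1.10 in sgXIST7 and 1.93 in sgXIST9, and that over all genes tested was 0.0171, 0.00958 and 0.0881.

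VEGFA, at chr6:43770209-43786486 of hg38, encodes the principal ligand for growth of blood vessels. In sgCtl it had 34.1, 31.7 and 36.6 CPM in normoxia and 163, 139 and 244 CPM in hypoxia. In sgXIST7 it had 27.5, 28.9 and 28.5 CPM in normoxia and 209, 316 and 378 CPM in hypoxia, and in sgXIST9 23.4, 27.2 and 27.9 CPM against 133, 102 and 239 CPM. The groups of the 2 oxygen levels did not overlap in any clone, and the hypoxia library numbered 3 was the highest of each group. The log2 fold change was 2.41 in sgCtl (SE 0.28, adjusted p = 2.4e-06), 3.41 in sgXIST7 (SE 0.29, adjusted p = 4e-08) and 2.59 in sgXIST9 (SE 0.28, adjusted p = 8.4e-07). These correspond to 5.32-, 10.6- and 6.03-fold higher levels. When single libraries were left out, the values stayed between 2.14 and 2.58 in sgCtl, between 3.23 and 3.62 in sgXIST7 and between 2.17 and 2.83 in sgXIST9.

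ANGPTL4, at chr19:8364155-8374370, encodes a secreted inhibitor of lipoprotein lipase that also acts on vessels. It had 5.10, 5.34 and 5.28 CPM in sgCtl in normoxia and 57.4, 38.9 and 109 CPM in hypoxia. The sgXIST7 libraries had 6.44, 11.7 and 4.84 CPM in normoxia and 113, 188 and 198 CPM in hypoxia. The sgXIST9 libraries had 5.18, 4.46 and 4.44 CPM in normoxia and 73.7, 65.8 and 111 CPM in hypoxia. Normoxia levels were low in all 3 clones, and each hypoxia library was above each normoxia library. ANGPTL4 had the highest response of the 8 factors in sgCtl and sgXIST9, with log2 fold changes of 3.70 (SE 0.39, adjusted p = 9e-07) and 4.15 (SE 0.39, adjusted p = 1.8e-07), and 4.45 in sgXIST7 (SE 0.38, adjusted p = 5.3e-08). Against its own normoxia level it was 13-fold higher in sgCtl, 21.9-fold in sgXIST7 and 17.7-fold in sgXIST9.

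ADM, at chr11:10305073-10307397, encodes adrenomedullin, a peptide that widens vessels. In sgCtl it had 273, 263 and 325 CPM in normoxia and 266, 325 and 380 CPM in hypoxia, so that the groups overlapped (log2 fold change 0.17, 95% interval −0.33 to 0.67, adjusted p = 0.57). In sgXIST7 it had 8.60, 9.89 and 5.93 CPM in normoxia and 141, 186 and 237 CPM in hypoxia, a 23.2-fold rise (log2 fold change 4.53, SE 0.28, adjusted p = 1.6e-09). In sgXIST9 it had 7.81, 6.06 and 7.12 CPM in normoxia and 88.1, 77.7 and 156 CPM in hypoxia, a 15.3-fold rise (log2 fold change 3.93, SE 0.28, adjusted p = 7.9e-09). The level in hypoxia came nearer to that of sgCtl in both KD clones but stayed below each sgCtl library. The mean in hypoxia was 324 ± 56.7 CPM in sgCtl, 188 ± 47.8 CPM in sgXIST7 and 107 ± 42.3 CPM in sgXIST9 (SD, n = 3).

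VEGFB, at chr11:64234584-64239264, encodes a ligand of the receptor FLT1. It had 16.4, 20.2 and 16.9 CPM in sgCtl in normoxia and 20.1, 12.9 and 24.2 CPM in hypoxia, and the groups overlapped (log2 fold change 0.09, 95% interval −0.37 to 0.54, adjusted p = 0.76). In sgXIST7 it went from 18.1, 26.7 and 19.2 CPM to 37.5, 44.3 and 50.9 CPM (log2 fold change 1.05, SE 0.21, adjusted p = 0.00039). In sgXIST9 it went from 12.5, 13.6 and 11.6 CPM to 28.7, 20.9 and 31.1 CPM (log2 fold change 1.10, SE 0.21, adjusted p = 0.00038). Both rises lie close to the limit on the fold change. Without the 3 hypoxia libraries numbered 3 they were 0.96 and 0.99 and not called (adjusted p = 0.00037 and 0.00042). In sgXIST7 the call was also lost without normoxia replicate 1 (0.95), normoxia replicate 3 (0.98) or hypoxia replicate 3 (0.95), and in sgXIST9 without hypoxia replicate 3 (0.98), and the adjusted p ranged up to 0.0036 and 0.003 over all libraries left out.

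PDGFA and PDGFB encode the chains of platelet-derived growth factor, which acts on pericytes and fibroblasts. PDGFA, at chr7:497260-519844, had 7.18, 7.66 and 9.93 CPM in sgCtl in normoxia and 8.25, 7.74 and 10.1 CPM in hypoxia (log2 fold change 0.07, adjusted p = 0.85). In sgXIST7 it had 1.90, 1.78 and 2.18 CPM in normoxia and 3.01, 4.12 and 6.04 CPM in hypoxia (log2 fold change 1.14, SE 0.29, adjusted p = 0.0026). The sgXIST9 libraries had 2.5, 1.06 and 1.87 CPM in normoxia and 4.51, 3.81 and 4.99 CPM in hypoxia (log2 fold change 1.28, SE 0.29, adjusted p = 0.0013). PDGFA thus rose in both KD clones, as ADM did, from a low normoxia level. Without the 3 hypoxia libraries numbered 3 the value in sgXIST7 was 0.88 (adjusted p = 0.011) and not called. It was also not called without sgXIST7 normoxia replicate 1 (1.12), normoxia replicate 2 (1.08) or hypoxia replicate 3 (0.88), with adjusted p-values up to 0.017.

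PDGFB, at chr22:39223359-39244982, went the other way. It fell in sgCtl from 16.8, 14.8 and 11.8 CPM to 6.63, 3.67 and 6.47 CPM, 2.62-fold (log2 fold change −1.39, SE 0.28, adjusted p = 0.00058). In sgXIST7 it had 19.3, 18.8 and 18.8 CPM in normoxia and 13.5, 18.5 and 24.8 CPM in hypoxia. In sgXIST9 it had 18.3, 17.1 and 19.4 CPM in normoxia and 14.2, 11.5 and 24.2 CPM in hypoxia. The groups of both KD clones overlapped, with log2 fold changes of −0.01 (95% interval −0.56 to 0.54) and −0.14 (95% interval −0.69 to 0.41), the first of which turned positive under other scalings. The hypoxia library numbered 3 was the highest of the group in both KD clones.

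VEGFC, at chr4:176683538-176792922, encodes a ligand for growth of lymphatic vessels and was low throughout. It had 4, 6 and 10 counts in sgCtl in normoxia and 18, 19 and 6 counts in hypoxia (log2 fold change 1.00, SE 0.44, adjusted p = 0.068). In sgXIST7 it had 20, 10 and 17 counts in normoxia and 24, 21 and 8 counts in hypoxia (log2 fold change 0.38, adjusted p = 0.42). In sgXIST9 it had 4, 2 and 1 counts in normoxia and 30, 23 and 8 counts in hypoxia, and rose (log2 fold change 2.99, SE 0.50, adjusted p = 9.3e-05). In a fit of the sgXIST9 groups alone VEGFC did not pass the filter on low counts, and 6 instead of 7 factors were called in hypoxia. Hypoxia levels were alike across the clones, with means of 0.867, 0.930 and 0.972 CPM, whereas the normoxia level of sgXIST9 was the lowest at 0.114 CPM.

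PGF, at chr14:74941830-74955764, encodes placental growth factor, another FLT1 ligand. It had 60, 21 and 34 counts in sgXIST7 in normoxia and 8, 2 and 0 counts in hypoxia, and fell (log2 fold change −3.25, SE 0.63, adjusted p = 0.00029). In sgXIST9 it had 61, 29 and 34 counts in normoxia and 12, 16 and 6 counts in hypoxia, and fell (log2 fold change −1.89, SE 0.53, adjusted p = 0.0059). In sgCtl it had 6, 2 and 9 counts in normoxia and 2, 0 and 2 counts in hypoxia, where it was not detected. PGF reached the level that the filter on low counts required (0.567 CPM) in the 6 normoxia libraries of the KD clones and in 1 other library, so a difference was implied by that filter. Its fall in sgXIST9 was not called without normoxia replicate 1 (−1.65) or 3 (−1.93), or without hypoxia replicate 1 (−1.86), 2 (−2.13) or 3 (−1.70), with adjusted p-values from 0.011 to 0.033 in these fits and from 0.0032 over all libraries left out.

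STC1, at chr8:23841929-23854806, encodes a secreted hormone of calcium and phosphate handling. It had at most 1 count in each normoxia library. In hypoxia it had 4, 0 and 5 counts in sgCtl, 4, 9 and 3 in sgXIST7 and 3, 0 and 2 in sgXIST9. These counts are too few for a statement on a change, and with no filter on low counts the adjusted p-values were 0.118, 0.0325 and 0.103. EDN1, at chr6:12290361-12297194, encodes endothelin-1, which constricts vessels. It had at most 2 counts in any of the 18 libraries and was not detected in any group.

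**Figure D3:**
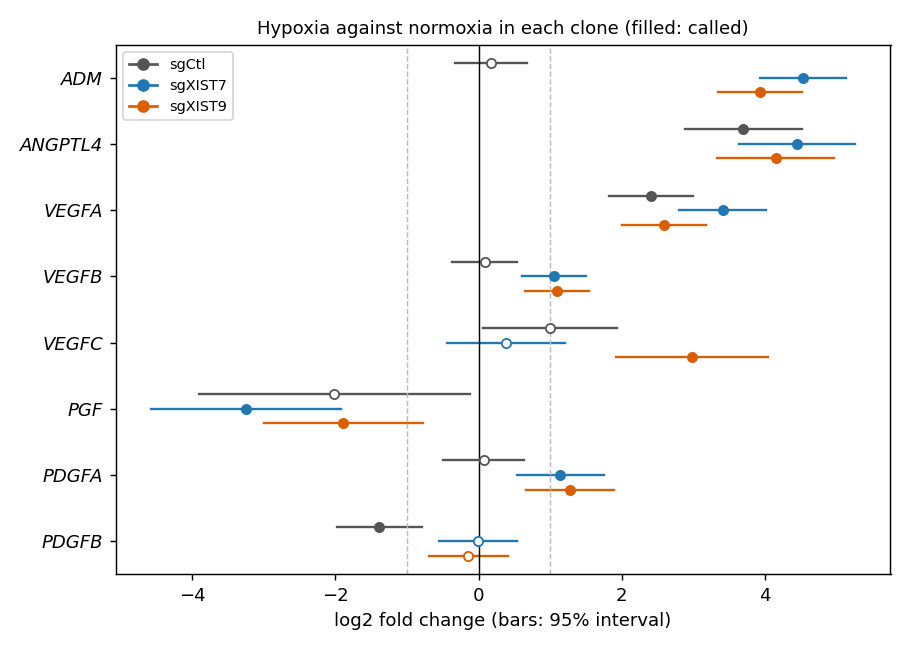
Log2 fold change of hypoxia against normoxia in each clone for the 8 factors tested, with 95% intervals; filled points were called and dashed lines mark the limit of 1 in either direction. VEGFA and ANGPTL4 rose in the 3 clones, and ADM stood at 0.17 in sgCtl against 4.53 and 3.93 in the KD clones.

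Whether the response to hypoxia differed between clones was tested with interaction contrasts in the same fit. ADM was the only factor called, with a response higher in sgXIST7 than in sgCtl by a log2 value of 4.36 (SE 0.36, adjusted p = 5e-06) and in sgXIST9 than in sgCtl by 3.76 (SE 0.36, adjusted p = 3.7e-05). Of all genes tested, 1.52% were called in the first contrast (0.904% up, 0.616% down) and 1.01% in the second (0.663% up, 0.348% down), which share the sgCtl libraries. With each library left out, the ADM values ranged from 4.17 to 4.53 and from 3.39 to 3.94. The values of PDGFB were 1.38 (SE 0.38, adjusted p = 0.034) and 1.25 (SE 0.38, adjusted p = 0.067), those of PDGFA 1.07 and 1.21 (adjusted p = 0.09 and 0.081), and those of VEGFB 0.96 and 1.01 (adjusted p = 0.053 and 0.063). These 3 factors were called in a KD clone or in sgCtl but their responses were not shown to differ with edgeR. DESeq2 called PDGFB for sgXIST7 minus sgCtl (1.38, adjusted p = 0.0084). Without sgCtl hypoxia replicate 3, VEGFB was called in both contrasts (1.17 and 1.21, adjusted p = 0.0077 and 0.0095, with a range over all libraries left out up to 0.12 and 0.15). Without the 3 hypoxia libraries numbered 3, VEGFA (1.08), VEGFB (1.07) and PDGFB (1.27) were called for sgXIST7 beside ADM.

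The responses of sgXIST7 and sgXIST9 were not shown to differ for any factor with edgeR, where 0.167% of all genes were called (0.0803% up, 0.087% down). An unadjusted p-value under 0.05 was seen for 2 of the 8, a looser limit for which no share of all genes was counted. VEGFC came nearest, with a difference of −2.60 (95% interval −3.97 to −1.24, adjusted p = 0.058). Without the 3 hypoxia libraries numbered 3, VEGFC (−2.74, adjusted p = 0.0084) and VEGFA (1.05, adjusted p = 0.0069) were called. DESeq2 called 0 of the 8.

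In normoxia, the comparison of the KD clones with sgCtl showed lower ADM and PDGFA in both KD clones. PGF was called higher in both, but it had passed the filter on low counts almost only through the KD normoxia libraries, so that this direction was implied by the filter. With it, 3 of 8 factors were called in each clone, against 7.76% of all genes in sgXIST7 (4.67% up, 3.09% down) and 7.7% in sgXIST9 (3.93% up, 3.77% down). Both comparisons use the same sgCtl libraries. The other 5 factors were not called in either clone. The fibroblast marker list was also higher in the KD clones, with summed levels of 1.24 to 1.72 CPM in sgCtl, 70.0 to 122 CPM in sgXIST7 and 33.4 to 60.7 CPM in sgXIST9 in normoxia, most of it COL1A2, while DCN and LUM had at most 2 counts in each KD library of normoxia. The part of these markers in the results was not tested.

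ADM was 35.4-fold lower in sgXIST7 than in sgCtl (log2 fold change −5.14, SE 0.29, adjusted p = 1.2e-09) and 40.9-fold lower in sgXIST9 (log2 fold change −5.36, SE 0.29, adjusted p = 6.3e-10). The mean was 287 ± 33.3 CPM in sgCtl, 8.14 ± 2.02 CPM in sgXIST7 and 7.0 ± 0.884 CPM in sgXIST9 (SD, n = 3), and the sgCtl libraries were far from those of either KD clone. PDGFA was 4.21-fold lower in sgXIST7 (log2 fold change −2.08, SE 0.29, adjusted p = 4e-05) and 4.53-fold lower in sgXIST9 (−2.18, SE 0.29, adjusted p = 2.6e-05). Its mean was 8.26 ± 1.47 CPM in sgCtl against 1.95 ± 0.205 and 1.81 ± 0.720 CPM in the KD clones. Each of these 4 calls was kept with any single library left out.

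PGF had, under that limit, log2 fold changes of 2.23 in sgXIST7 (SE 0.58, adjusted p = 0.0096) and 2.48 in sgXIST9 (SE 0.58, adjusted p = 0.0046). It rested on 6, 2 and 9 counts in sgCtl. In sgXIST7 the call was lost in 13 of the 18 fits that leave out a library, with values of 1.83 to 2.60 and adjusted p-values of 0.0051 to 0.055 over the 18. The lowest values came without sgXIST7 normoxia replicate 1 (1.83) and without sgCtl normoxia replicate 2 (1.91). In sgXIST9 it was lost in 5 of 18, without sgCtl normoxia replicate 1 (2.54), 2 (2.16) or 3 (2.85) or sgXIST9 normoxia replicate 1 (2.23) or 3 (2.52), with adjusted p-values of 0.0023 to 0.03 over the 18.

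VEGFA and ANGPTL4 did not pass the test in normoxia. VEGFA had log2 fold changes of −0.27 (95% interval −0.84 to 0.30) in sgXIST7 and −0.38 (95% interval −0.95 to 0.19) in sgXIST9, and each KD library was below each sgCtl library. ANGPTL4 had log2 fold changes of 0.53 (95% interval −0.28 to 1.35) and −0.15 (95% interval −1.0 to 0.69). PDGFB had values of 0.39 and 0.34, with both KD clones above the sgCtl libraries. VEGFB had values of 0.26 and −0.50 (adjusted p = 0.45 and 0.12). VEGFC had values of 0.72 and −1.83 (adjusted p = 0.28 and 0.028), and between the KD clones it was 5.83-fold higher in sgXIST7 than in sgXIST9 (log2 fold change 2.54, SE 0.52, adjusted p = 0.0035). VEGFC was the only factor called between the KD clones in normoxia, against 3.4% of all genes (2.09% up, 1.31% down). That call rested on 4, 2 and 1 counts in sgXIST9 and was lost without sgXIST7 normoxia replicate 1 (2.39) or 3 (2.53) or sgXIST9 normoxia replicate 2 (2.48) or 3 (2.27), with adjusted p-values of 0.0016 to 0.025 over the 18 fits.

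In hypoxia the picture was different. In sgXIST7, PDGFB, ANGPTL4 and VEGFB were higher than in sgCtl and PDGFA was lower, 4 of the 8 factors against 14% of all genes tested (7.83% up, 6.19% down). In sgXIST9, PDGFB was higher and ADM lower, 2 of the 8 against 9.53% of all genes (6.14% up, 3.39% down). The hypoxia libraries of sgCtl are shared by these comparisons. The summed fibroblast markers were 1.75 to 3.72 CPM in sgCtl, 128 to 308 CPM in sgXIST7 and 37.0 to 73.8 CPM in sgXIST9 in hypoxia. Of the 3 markers tested, 2 were called higher and 1 lower in each KD clone, so the sum hides opposite directions. DCN passed the filter on low counts through sgCtl libraries alone and COL1A2 through KD libraries alone, so that their directions were implied by it. The part of these markers was not tested here either.

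PDGFB had 5.59 ± 1.66 CPM in sgCtl, 18.9 ± 5.64 CPM in sgXIST7 and 16.6 ± 6.67 CPM in sgXIST9 (SD, n = 3), so that it was 3.40-fold higher in sgXIST7 (log2 fold change 1.77, SE 0.28, adjusted p = 0.00011) and 2.99-fold higher in sgXIST9 (1.58, SE 0.28, adjusted p = 0.00038). Each KD library lay above each sgCtl library. ADM was 3.02-fold lower in sgXIST9 (log2 fold change −1.60, SE 0.24, adjusted p = 9.9e-05), and in sgXIST7 its value was −0.78 (SE 0.24, adjusted p = 0.015), with the sgXIST7 libraries below those of sgCtl. In a fit of the compared groups alone, neither ADM (−1.59, adjusted p = 0.011) nor PDGFB (1.59, adjusted p = 0.026) was called in sgXIST9. Over each library left out, the adjusted p of ADM in sgXIST9 stayed between 7e-06 and 0.0011.

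VEGFB was 2.33-fold higher in sgXIST7 than in sgCtl (log2 fold change 1.22, SE 0.21, adjusted p = 0.00026), and had a value of 0.997 without sgCtl hypoxia replicate 2, where it was not called. ANGPTL4 was 2.44-fold higher (1.29, SE 0.33, adjusted p = 0.0053). This call was lost without sgCtl hypoxia replicate 1 (1.17) or 2 (1.00), or without sgXIST7 hypoxia replicate 2 (1.18) or 3 (1.14), with no filter (adjusted p = 0.02) and in a fit of the compared groups alone (adjusted p = 0.037), with adjusted p-values of 0.00024 to 0.029 over the 18 fits. PDGFA was 2.0-fold lower (log2 fold change −1.0, SE 0.27, adjusted p = 0.0078), at the limit on the fold change, and 15 of the 18 fits that leave out a library lost the call, with values from −1.28 to −0.79. It was also lost with median-of-ratios scaling (−0.997), with no filter (−0.98) and in a fit of the compared groups alone (adjusted p = 0.044). In sgXIST9 PDGFA had a nearly equal value of −0.97 (adjusted p = 0.012), which DESeq2 called (adjusted p = 0.0017) and edgeR did not. VEGFA had values of 0.73 in sgXIST7 (95% interval 0.18 to 1.28, adjusted p = 0.034) and −0.20 in sgXIST9 (95% interval −0.76 to 0.35), and its groups overlapped in both.

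PGF was not detected in sgCtl in hypoxia and was at least 2.74-fold higher in sgXIST9 by its counts, without a call (adjusted p = 0.024). It was called without the 3 hypoxia libraries numbered 3 (log2 fold change 3.37, adjusted p = 0.0091). Between the KD clones in hypoxia no factor was called with edgeR, where 4.46% of all genes were (2.06% up, 2.4% down). An unadjusted p-value under 0.05, a looser limit for which no share of all genes was counted, was seen for 5 of the 8. DESeq2 called 0. ADM, VEGFA and ANGPTL4 had higher means in sgXIST7, by log2 values of 0.81 (adjusted p = 0.027), 0.93 (0.021) and 0.99 (0.045). Without sgXIST9 hypoxia replicate 3, ADM (1.18) and VEGFA (1.36) were called, and without sgXIST7 hypoxia replicate 1, VEGFA was called (1.14), as it was without the 3 hypoxia libraries numbered 3 (1.17, adjusted p = 9.6e-05), with adjusted p-values for VEGFA from 0.00071 to 0.11 over the 18 fits and for ADM from 0.0012 to 0.14.

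**Figure D4:**
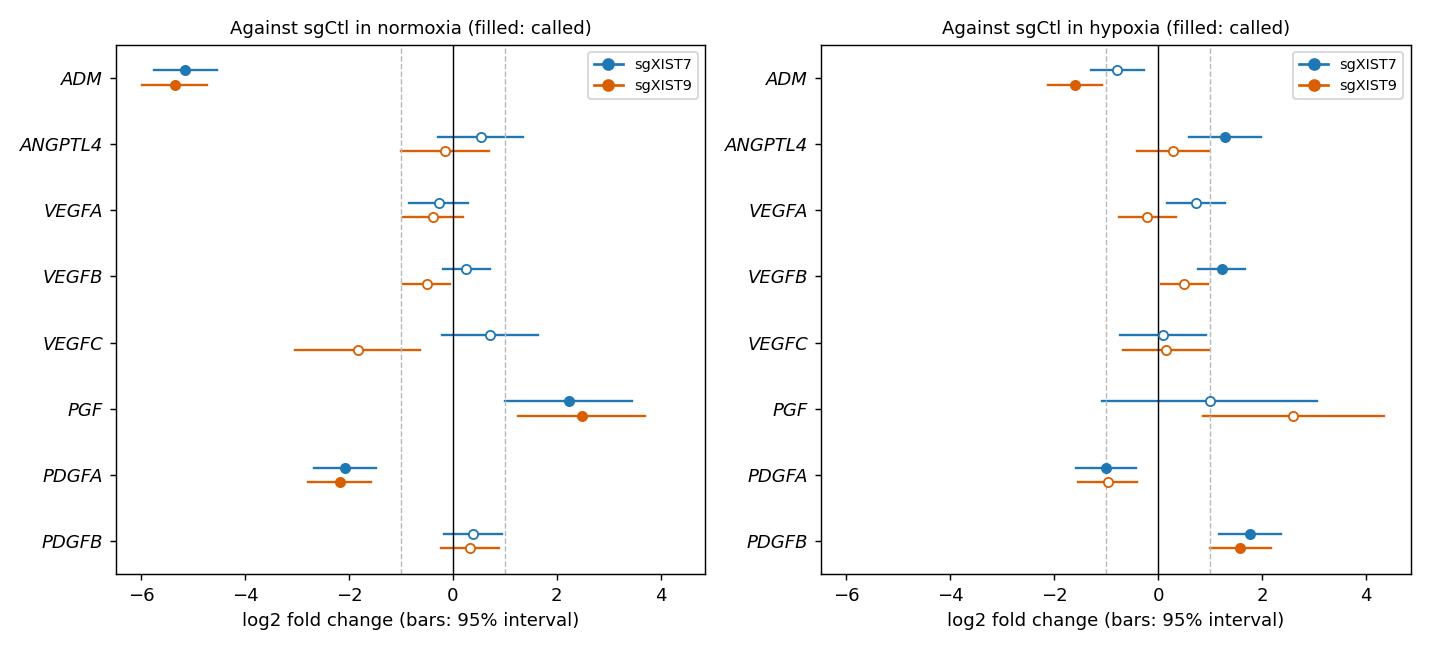
Log2 fold change of each KD clone against sgCtl for the 8 factors, in normoxia on the left and in hypoxia on the right, with 95% intervals; filled points were called and dashed lines mark the limit of 1 in either direction. ADM moved from −5.14 and −5.36 in normoxia to −0.78 and −1.60 in hypoxia.

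Receptors and co-receptors of these ligands were examined to see which of them the cells themselves expressed. Of 15 receptor genes, 6 passed the filter on low counts. FLT4, NRP2 and CALCRL reached the level that the filter required (0.567 CPM) in all 18 libraries. KDR, the main signaling receptor of VEGFA, had at most 1 count in any library. FLT1, the receptor of VEGFA, VEGFB and PGF, was not detected in normoxia and rose in hypoxia in all 3 clones. FLT1 passed the filter through the 3 hypoxia libraries of sgCtl alone, so that its rise in sgCtl and its lower level in the KD clones in hypoxia were implied by the filter. It was at least 14.9-fold higher in sgCtl, with 3.01 ± 1.77 CPM (SD, n = 3), and at least 3.20- and 3.02-fold higher in sgXIST7 and sgXIST9, with 0.456 ± 0.107 and 0.471 ± 0.0289 CPM. The call in sgXIST7 was lost without normoxia replicate 1 (3.05), 2 (2.69) or 3 (2.54) or hypoxia replicate 1 (2.53), and that in sgXIST9 without normoxia replicate 1 (2.92) or 2 (3.03), as log2 fold changes. Against sgCtl in hypoxia, the KD clones had lower values of FLT1 (log2 fold change −2.73 and −2.69, adjusted p = 0.00037 and 0.00047), which a fit of the compared groups alone did not call (adjusted p = 0.012 and 0.02). The EDN1 receptor EDNRA also rose in the 3 clones (log2 fold changes 2.25, 3.83 and 3.90). EDNRA passed the filter almost only through hypoxia libraries, so that this direction was implied by the filter. Receptors called in hypoxia numbered 3 of 6 in sgCtl and in sgXIST7 and 4 of 6 in sgXIST9, all of them up, against 11.3%, 15.1% and 14.7% of all genes tested. These counts include FLT1 and EDNRA in each clone, and so rest in part on the filter.

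CALCRL, which forms the adrenomedullin receptor with a RAMP protein, was lower in both KD clones than in sgCtl. Its mean was 90.7 ± 3.65 CPM in sgCtl, 10.0 ± 1.11 CPM in sgXIST7 and 17.4 ± 1.24 CPM in sgXIST9 in normoxia (SD, n = 3), and 99.7 ± 15.1, 34.5 ± 2.91 and 31.2 ± 4.24 CPM in hypoxia. Against sgCtl in normoxia, the log2 fold change was −3.17 in sgXIST7 (SE 0.14, adjusted p = 4.1e-11) and −2.39 in sgXIST9 (SE 0.13, adjusted p = 9.4e-10). It rose in hypoxia in sgXIST7 (1.78, SE 0.14, adjusted p = 1.2e-08), whereas in sgXIST9 its value of 0.85 (SE 0.13, adjusted p = 4e-05) was under the limit on the fold change. The response of sgXIST9 minus sgCtl was not called for CALCRL (0.71, adjusted p = 0.031), unlike that of ADM. RAMP1, RAMP2 and RAMP3 had at most 2 counts in any library. The co-receptor NRP2 was high in sgXIST7 alone among the clones, with 79.8 ± 2.09 CPM in normoxia against 1.47 ± 0.310 CPM in sgCtl and 2.06 ± 0.275 CPM in sgXIST9 (log2 fold change 5.76 against sgCtl and 5.28 against sgXIST9, adjusted p = 1e-08 and 2.4e-08). NRP1 rose in hypoxia in sgCtl (1.67, SE 0.46) and sgXIST9 (2.21, SE 0.43), but the sgCtl call was lost without any of the normoxia replicates 1 to 3 (1.39, 1.72 and 1.94) or without hypoxia replicate 1 (1.46) or 2 (1.63).

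**Figure D5:**
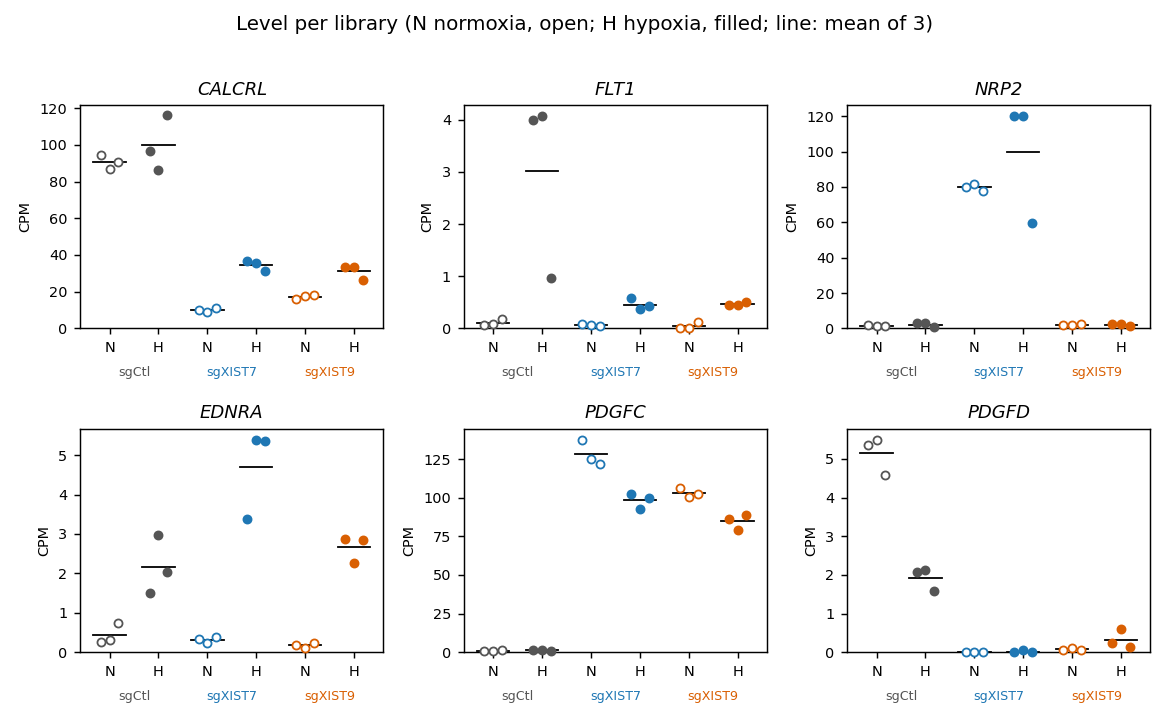
CPM per library, on linear axes from 0, of the receptors CALCRL, FLT1, NRP2 and EDNRA and the ligands PDGFC and PDGFD in normoxia (N, open) and hypoxia (H, filled); lines are means of 3 libraries. PDGFC stood at 103 to 128 CPM on average in the KD clones in normoxia and at 1.04 CPM in sgCtl.

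Of 20 related ligands in the table, 9 were tested. PDGFC and PDGFD, the further chains of the PDGF family, differed between sgCtl and the KD clones in opposite directions. PDGFC had a mean of 1.04 ± 0.25 CPM in sgCtl, 128 ± 8.28 CPM in sgXIST7 and 103 ± 2.93 CPM in sgXIST9 in normoxia (SD, n = 3), log2 fold changes of 6.92 (SE 0.14, adjusted p = 1.4e-15) and 6.60 (SE 0.14, adjusted p = 3e-15). PDGFD passed the filter almost only through the sgCtl libraries, ANGPT2 through those of sgXIST9 alone, so that their directions were implied by the filter. PDGFD had 5.15 ± 0.487 CPM in sgCtl and was not detected in either KD clone, so that its level in sgXIST9 was lower by at least 33-fold and in sgXIST7 by at least 36.2-fold. ANGPT2, a ligand of the receptor TEK, was not detected in sgCtl and was at least 7.15-fold higher in sgXIST9 in normoxia and at least 18.7-fold higher in hypoxia. ANGPTL6 rose in hypoxia in sgXIST7 (3.19, SE 0.55) and sgXIST9 (2.35, SE 0.55), the latter not without sgXIST9 normoxia replicate 1 (2.19). ANGPTL6 passed the filter mostly through hypoxia libraries, so that a rise was implied by the filter. APLN, the peptide apelin, was lower in sgXIST7 than in sgCtl in normoxia (−2.76, SE 0.62), but not called without sgCtl replicate 2 (−2.69) or 3 (−2.76) or sgXIST7 replicate 2 (−2.28) or 3 (−2.51). In normoxia, related ligands called up and down numbered 2 and 2 of 9 in sgXIST7 and 3 and 1 of 9 in sgXIST9, against 4.67% and 3.09% of all genes in sgXIST7 and 3.93% and 3.77% in sgXIST9. These counts include PDGFD in each KD clone and ANGPT2 in sgXIST9, and so rest in part on the filter. The medians were 0.55 and 0.72, and those over all genes tested −0.00591 and −0.0225.

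Of 10 enzymes that process such factors, 8 were tested. PAM, which adds the amide group that adrenomedullin needs for activity, rose in hypoxia in sgXIST7 (log2 fold change 2.35, adjusted p = 0.00013) and sgXIST9 (1.94, adjusted p = 0.00076). It was not called in sgCtl, but its response was not shown to differ from that of sgCtl. None of the 8 enzymes was called in the response of either KD clone minus sgCtl, where 1.52% and 1.01% of all genes were. PCSK5, a convertase of secreted precursors, rose in hypoxia in all 3 clones (2.52, 2.51 and 4.55). In sgXIST9 it reached the level that the filter required in no normoxia library. Against sgCtl it was lower in sgXIST9 in normoxia (−4.32) and in hypoxia (−2.36), with the replicate number as a block. The hypoxia difference was not called by edgeR in a fit of the compared groups alone (adjusted p = 0.021). PLAT, a plasminogen activator, passed the filter through the sgXIST7 normoxia libraries alone, which implied its direction, and was at least 4.69-fold higher in sgXIST7 than in sgCtl in normoxia, a call that was lost without sgCtl replicate 1 (log2 fold change 2.48), 2 (2.57) or 3 (2.67) or sgXIST7 replicate 1 (2.26). In hypoxia, 1 of the 8 rose in sgCtl, 2 rose and 1 fell in sgXIST7, and 2 rose in sgXIST9, with medians of 0.15, −0.08 and 0.15. Of all genes tested, 11.3%, 15.1% and 14.7% rose and 8.49%, 12.2% and 8.58% fell. The count that rose in sgCtl and the count that fell in sgXIST7 were thus near the background. The fall was that of PLAT (−1.67), which DESeq2 did not call (adjusted p = 0.029) and which was lost in 12 of the 18 fits that leave out a library (smallest change −1.27, without sgXIST7 hypoxia replicate 2) and without the 3 hypoxia libraries numbered 3 (−1.61, adjusted p = 0.011).

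Of 10 secreted factors known to restrain angiogenesis, 7 were tested. THBS1, TIMP3 and ADAMTS1 rose in hypoxia in the 3 clones. THBS1, thrombospondin-1, had log2 fold changes of 2.28, 2.40 and 4.05 in sgCtl, sgXIST7 and sgXIST9, and TIMP3 had 2.72, 1.72 and 2.49. ADAMTS1, a protease with antiangiogenic domains, had 1.93, 1.15 and 1.42. Of these calls, THBS1 in sgCtl was lost without normoxia replicate 1 (2.09) or hypoxia replicate 2 (1.80), ADAMTS1 in sgXIST7 without any single library of that clone (values of 1.04 to 1.26), ADAMTS1 in sgCtl in a fit of the compared groups alone (adjusted p = 0.011), and TIMP3 in sgXIST7 in 12 of the 18 fits that leave out a library (lowest value 1.42, without sgXIST7 normoxia replicate 3). COL18A1, the source of endostatin, fell in sgXIST7 (−1.51) and sgXIST9 (−1.10). In normoxia COL18A1 and ADAMTS1 were higher in both KD clones than in sgCtl (log2 fold changes 2.53 and 3.27 in sgXIST7, 2.14 and 2.22 in sgXIST9), although the fit of the compared groups alone did not call ADAMTS1 in sgXIST9 (adjusted p = 0.012). THBS1 was lower in sgXIST9 than in sgCtl in normoxia (−3.81, adjusted p = 0.00044, edgeR with the replicate number as a block). That call was lost without sgXIST9 normoxia replicate 1 (−3.44). In hypoxia TIMP3 was lower than in sgCtl in sgXIST7 (−2.52) and sgXIST9 (−1.55) in the same fit. The sgXIST9 call was lost in 13 of the 18 fits that leave out a library. Called higher in hypoxia were 3 of the 7 in each KD clone, against 7.83% and 6.14% of all genes. SERPINF1, pigment epithelium-derived factor, rose in hypoxia in sgXIST7 (1.57) and sgXIST9 (1.18), with 75.6 ± 28.2, 360 ± 59.0 and 230 ± 49.4 CPM in sgCtl, sgXIST7 and sgXIST9 in hypoxia. In hypoxia 3 of the 7 rose in sgCtl, 4 rose and 2 fell in sgXIST7, and 4 rose and 1 fell in sgXIST9, against 19.7%, 27.3% and 23.3% of all genes called in either direction.

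Genes with the pattern most like each factor across the 18 libraries were found by the Pearson correlation of log2 CPM over all genes tested, as a description. For VEGFA they were GAPDH (0.994), ANKZF1 (0.993) and ABCB6 (0.993), and for ANGPTL4 PPFIA4 (0.995), TBC1D8B (0.992) and B3GNT4 (0.990). For ADM they were P2RY1 (0.977), RNF150 (0.963) and PDLIM1 (0.959). ADM was itself among the 3 genes most like PDGFA (0.927), as was CCDC115 (0.924). For VEGFB they were ANXA4 (0.947), ARVCF (0.945) and MRC2 (0.931), and for PDGFB TEAD2 (0.941), ARFRP1 (0.933) and IGF2BP3 (0.932). For the low factors they were SIX2 (0.915), HUNK (0.910) and HMX1 (0.893) for VEGFC and ERAP2 (0.952), LOC100507002 (0.944) and GBP3 (0.937) for PGF. The 18 libraries fall into the 6 groups, so these values mostly reflect differences between groups.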

How the data were processed

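RNA-seq of 18 libraries in 6 groups of 3 was analysed. Libraries were made by the authors with a stranded kit after removal of ribosomal RNA. Per the methods and the submitters' processing notes, Trimmomatic was used for trimming, FastQC for quality, HISAT2 for alignment (hg38) and featureCounts for counting. The strand setting of the counting and tool versions are not given in the sources used here. The deposited values are the authors' raw counts per gene symbol, whole numbers without normalization, beside a gene length. Of 28279 lines, 2 were left out, which hold 1 record split in the middle without a full set of counts.

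From these counts, edgeR 4.0.16 (limma 3.58.1, R 4.3.3) was fitted once to the 6 groups, with TMM factors (0.859 to 1.12), filterByExpr (minimum count 10, minimum total 15), glmQLFit with robust estimation, glmQLFTest and a prior count of 0.125. It tested 14938 genes, with Benjamini-Hochberg adjustment over all of them. A call required an adjusted p below 0.01 and a log2 fold change beyond 1 in either direction. There were 12 comparisons, namely hypoxia against normoxia in each clone, each pair of clones in each oxygen level, and the 3 differences in response. The SE is the size of the log2 fold change divided by the square root of F. The fit was tested on simulated data. Promoter windows and motif matches come from a supplied set of RefSeq promoters (GRCh38.p14). That set held entries for 7 of the 10 factors and lacked VEGFA, PDGFB and STC1, which is a gap of the set used.

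The factors and the lists of receptors, ligands, enzymes, antiangiogenic factors and markers were chosen by hand with earlier results of these data known. All 10 factors are named, with the 3 genes most correlated with each tested one, of which 1 is not reported here. The genes named from the lists were those called in at least 1 comparison, up to 5 per list by fold change, with FLT1, KDR, NRP1 and NRP2. Others (FLT4, RAMP1 to RAMP3, EPCAM, KRT18, PAX8, KRT8, KRT7, WT1, MUC16, WFDC2, CDH5, CLDN5, ROBO4, PECAM1, VWF, ESAM, PTPRC, CD3E, CD68, COL1A2, DCN, LUM) were named after their values were seen. Correlations used log2 CPM with a prior count of 2.

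Whether equal replicate numbers pair libraries was checked by the correlation of their deviations from the group means. It ranged from −0.0727 to 0.566 over 45 pairs. In all 3 pairs it was over 0.1 for sgCtl and sgXIST7 in normoxia and for sgCtl and sgXIST9 in hypoxia. The numbers were taken to pair the libraries there, but the main fit left this pairing out. The replicate number entered only in the alternative fit with a replicate block. The alternatives were DESeq2 1.42.0, median-of-ratios scaling, no filter, only the groups compared, a replicate block, an adjusted p-value under 0.05, unscaled library sizes, each library left out, and the 3 hypoxia libraries numbered 3 left out.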

Additional observations from a re-analysis of the deposited data

Results flagged for a closer look

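The response of ADM to hypoxia differed between clones by the interaction test, with a log2 difference of 4.36 for sgXIST7 minus sgCtl (adjusted p = 5e-06, edgeR) and 3.76 for sgXIST9 minus sgCtl (adjusted p = 3.7e-05, edgeR). ADM was higher in hypoxia in 3 of 3 libraries of each KD clone, while the sgCtl groups overlapped, and the cause was not tested. CALCRL, which encodes the ADM receptor subunit, differed in the same way for sgXIST7 minus sgCtl (1.64, SE 0.18, adjusted p = 0.00011, edgeR). SERPINF1 had a difference of 1.68 for sgXIST7 minus sgCtl (SE 0.29, adjusted p = 0.0035, edgeR), which was lost without sgCtl normoxia replicate 2 (1.62), sgCtl hypoxia replicate 1 (1.58), sgXIST7 normoxia replicate 1 (1.62) or 3 (1.64) or sgXIST7 hypoxia replicate 2 (1.66), and in a fit of the compared groups alone (adjusted p = 0.013). The contrasts share the sgCtl libraries.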

How the results depend on the processing

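Counts of factors called moved as follows. In the response of sgXIST7 minus sgCtl, 1 was called, but 2 at an adjusted p-value under 0.05, 2 with DESeq2 (ADM and PDGFB, 1.38, adjusted p = 0.0084) and 4 without the 3 hypoxia libraries numbered 3. In sgXIST7 against sgCtl in hypoxia, 4 were called, but 2 with no filter and 2 in a fit of only the groups compared, which left 0 of 2 in sgXIST9 against sgCtl in hypoxia. Without the 3 hypoxia libraries numbered 3, 1 instead of 0 was called between the KD clones in hypoxia and 2 instead of 0 in the difference of their responses. With a library left out in turn, the counts ranged from 0 to 1 between the KD clones in normoxia, 1 to 4 in sgXIST7 against sgCtl in hypoxia, 0 to 2 between the KD clones in hypoxia, and 1 to 2 in the response of each KD clone minus sgCtl. The cause of these shifts was not tested.

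Small log2 fold changes changed sign without a call. PDGFB in hypoxia in sgXIST7 was 0.017 with DESeq2 and 0.0168 with median-of-ratios scaling, VEGFB in sgXIST7 minus sgXIST9 was 0.0047 and 0.0037, and PDGFA in sgXIST7 against sgXIST9 in hypoxia was 0.0052 with that scaling. Without the 3 hypoxia libraries numbered 3, VEGFB and PDGFA in hypoxia in sgCtl were −0.11 and −0.046. With single libraries left out, sign changes were seen in hypoxia against normoxia for VEGFB (−0.11 to 0.31) and PDGFA (−0.046 to 0.22) in sgCtl and PDGFB in sgXIST7 (−0.23 to 0.19) and sgXIST9 (−0.50 to 0.068). They were seen in sgXIST7 against sgXIST9 for PDGFA in normoxia (−0.16 to 0.42) and for VEGFC (−0.34 to 0.26), PDGFA (−0.30 to 0.19) and PDGFB (−0.041 to 0.55) in hypoxia. They were seen against sgCtl in hypoxia for VEGFC (−0.12 to 0.30) and PGF (−0.52 to 1.57) in sgXIST7 and VEGFA (−0.63 to 0.062) and VEGFC (−0.16 to 0.44) in sgXIST9. They were seen in the response of sgXIST9 minus sgCtl for VEGFA (−0.25 to 0.45) and PGF (−0.60 to 0.70), and of sgXIST7 minus sgXIST9 for VEGFB (−0.19 to 0.15), PDGFA (−0.45 to 0.13) and PDGFB (−0.093 to 0.50).

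With the replicate number as a block, each of the 96 tests of a factor kept its direction and its side of the threshold, for example ADM in sgXIST7 against sgCtl in normoxia (log2 fold change −5.12), and no count of factors called moved by over 1.5 times. The counts of VEGFC, PGF, STC1 and EDN1 are low, and changes of these genes below the detection limit cannot be seen at this depth.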
